A study of Mus musculus with 12 samples.

Results

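This account follows 10 mouse genes of arginine transport and use, tetrahydrobiopterin synthesis and itaconate synthesis (Nos2, Slc7a2, Slc7a1, Arg1, Arg2, Ass1, Asl, Gch1, Odc1 and Acod1) in SIM-A9 cells, a microglial line that the labels give as C57BL/6. The genes were picked by symbol, and all 10 were found among the 55416 Ensembl identifiers of the count table. The 4 groups, of 3 libraries each, were MOK-KO (H14) cells given lipopolysaccharide (LPS) at 1 µg/mL for 5 h (KO LPS), WT cells given the same (WT LPS), MOK-KO cells in medium alone (KO medium) and WT cells in medium alone (WT medium). MOK is a serine/threonine kinase, and H14 was the only knockout line in the labels, so loss of MOK cannot be told apart from any other difference between the lines. The cultures of all groups were grown in serum-supplemented medium, and the labels call the 3 libraries of a group biological replicates without saying how cultures were separated, so the p-values below cover only the spread from library to library, which may be technical.

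As background, macrophages and microglia that meet bacterial products spend arginine on nitric oxide. The cationic amino acid transporters encoded by Slc7a1 and Slc7a2 bring arginine in, the inducible synthase encoded by Nos2 turns it into nitric oxide and citrulline, and Ass1 and Asl encode the enzymes that rebuild arginine from citrulline. Gch1 encodes the rate-limiting enzyme of tetrahydrobiopterin, a cofactor of nitric oxide synthase. The arginases Arg1 and Arg2 compete for the same arginine and yield ornithine, which the ornithine decarboxylase encoded by Odc1 feeds into polyamines. Acod1, also called Irg1, makes itaconate from the citric acid cycle intermediate cis-aconitate in activated macrophages.

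Libraries held between 39.7 M and 72.9 M counts. Mok transcripts were counted in every library, at 1.7, 1.5 and 1.3 CPM (counts per M counts of the TMM-scaled library) in KO LPS, 2.8, 2.2 and 2.5 CPM in WT LPS, 2.2, 2.6 and 1.9 CPM in KO medium and 3.3, 3.5 and 3.2 CPM in WT medium, so every KO library lay below every WT library of the same treatment. The log2 fold change of KO against WT was -0.72 ± 0.19 SE under LPS (edgeR adjusted p = 0.0177). In medium it was -0.58 ± 0.19 and missed the threshold of 0.05 (adjusted p = 0.0501). The marker levels that follow are counts per M counts of each library without TMM scaling, unlike the other CPM. Of 14 microglia and macrophage markers, 11 averaged at least 1 CPM over the libraries, among them Cd68, Ptprc, Csf1r and Tyrobp, while P2ry12, C1qa and Fcrls stayed under 1 CPM in every group mean. Cx3cr1, Tmem119 and Aif1 averaged 0.773, 0.53 and 0.815 CPM in KO LPS, against 1.08, 0.613 and 1.26 CPM in WT LPS. In medium they averaged 3.05, 6.62 and 1.34 CPM in KO, against 5.37, 4.27 and 1.66 CPM in WT. Tmem119 was thus higher in KO in medium, and all of them were lower under LPS than in medium in both lines. Itgam, the CD11b integrin chain, averaged 2.72 CPM in KO LPS, 21.2 CPM in WT LPS, 4.05 CPM in KO medium and 23.2 CPM in WT medium, and the part of such marker differences in the results was not tested. The summed level of the 14 markers was 891 to 1221 CPM in KO LPS, 1225 to 1325 CPM in WT LPS, 877 to 1263 CPM in KO medium and 1237 to 1421 CPM in WT medium. Markers of astrocytes, neurons and fibroblasts each summed to under 9 CPM in every library, those of oligodendrocytes (mostly Mbp) and lymphocytes (mostly Cd3e) reached 28.6 and 20.3 CPM at most, and among endothelial markers Kdr averaged 107, 85.0, 133 and 106 CPM in KO LPS, WT LPS, KO medium and WT medium. Reads in processed pseudogenes took 6.64% to 7.35% of counts in KO LPS and 12.8% to 14.3% in KO medium, with no overlap. They took 6.28% to 7.05% in WT LPS, and 8.89%, 13.0% and 6.58% in WT medium replicates 1, 2 and 3. In KO a term for this share can therefore be only partly separated from the LPS effect. Identifiers with no symbol took 10.4% of the reads counted in KO LPS replicate 2 and 4.88% to 8.18% of those in each other library.

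Promoter sequences were found for 5 of the 10 genes (Slc7a1, Ass1, Gch1, Odc1 and Acod1) in the RefSeq table of build GRCm38.p6. Those of Acod1 and Gch1 are shown because both genes rose with LPS in both lines, while under LPS Acod1 was at a similar level in the lines and Gch1 was lower in KO. Slc7a1 (at a similar level) and Odc1 (lower in KO) met the same description, and their promoters are not shown. The motifs of the shown genes are therefore not a contrast between such groups of genes. The 250 bases before the start lie at chr14:103046762-103047011 on the plus strand for Acod1 and at chr14:47189414-47189663 on the minus strand for Gch1, and capitals mark motif matches.
Acod1: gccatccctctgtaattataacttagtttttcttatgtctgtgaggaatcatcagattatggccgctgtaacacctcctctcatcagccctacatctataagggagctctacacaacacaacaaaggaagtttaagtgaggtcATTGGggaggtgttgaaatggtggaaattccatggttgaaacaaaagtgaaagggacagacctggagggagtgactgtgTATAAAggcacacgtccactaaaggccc
Gch1: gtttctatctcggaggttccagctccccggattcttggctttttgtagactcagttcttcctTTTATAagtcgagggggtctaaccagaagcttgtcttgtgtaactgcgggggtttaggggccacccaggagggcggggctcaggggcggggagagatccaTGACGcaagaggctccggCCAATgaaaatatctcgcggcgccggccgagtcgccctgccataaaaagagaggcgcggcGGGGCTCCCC
The search covered both strands for 9 motifs, namely the TATA box TATAAA, the CCAAT box CCAAT, the CRE half-site TGACG, the AP-1 site TGANTCA, the E-box CACGTG, the GAS element TTCNNNGAA, the ISRE (GAAA, any 2 bases, GAAA), the C/EBP site TTGCNNAA and the NF-kB consensus. Acod1 held TATAAA 28 to 23 bases before its start and CCAAT on the reverse strand 107 to 103 bases before it. Gch1 held TGACG 88 to 84 bases and CCAAT 70 to 66 bases before its start, and an NF-kB consensus match in the last 10 bases. Its TATAAA match lay on the reverse strand, 188 to 183 bases before the start. Among all 32851 promoters of this length, 12.4% held TATAAA, 33.8% CCAAT, 17.8% TGACG and 3.90% the NF-kB consensus. These matches describe the letters in this window only.

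Transporters came first in the pathway, and the lines differed most in Slc7a2. Slc7a2 encodes CAT-2, the inducible cationic amino acid transporter of macrophages. It had 16, 23 and 19 counts in KO LPS, against 6053, 3173 and 5052 in WT LPS. In medium it had 13, 8 and 15 counts in KO cells, against 2070, 1834 and 2533 in WT cells. The KO libraries thus held a few counts each, and no KO library came near a WT library under either treatment. Slc7a2 averaged 0.406 ± 0.052 CPM in KO LPS and 87.9 ± 14.4 CPM in WT LPS (SD, n = 3 each), 215-fold lower in KO (log2 fold change -7.75 ± 0.18 SE, edgeR adjusted p = 1.03e-09). The difference in medium was -7.36 ± 0.19 (adjusted p = 2.87e-09). By absolute size these fold changes ranked 7 and 3 among the 26420 genes tested. In bulk samples, fewer cells that express a gene and less RNA per cell cannot be told apart.

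Slc7a1, which encodes the widely expressed transporter CAT-1, did not follow that pattern. It had 456, 405 and 427 CPM in KO LPS, against 448, 434 and 439 CPM in WT LPS, and 198, 223 and 194 CPM in KO medium, against 234, 200 and 214 CPM in WT medium. The lines overlapped under both treatments, and every LPS library lay above every medium library. The difference between KO and WT was -0.04 ± 0.09 under LPS (95% interval -0.22 to 0.15, edgeR adjusted p = 0.856) and -0.07 ± 0.09 in medium (-0.26 to 0.11, adjusted p = 0.549). LPS raised Slc7a1 by 1.07 ± 0.09 on the log2 scale in KO (adjusted p = 3.86e-06) and by 1.03 ± 0.09 in WT (adjusted p = 4.76e-06).

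Per base of gene length, Slc7a2 made up 0.0962%, 0.132% and 0.132% of the counts of the pair Slc7a1 plus Slc7a2 in KO LPS, against 22.8%, 18.7% and 18.7% in WT LPS. In medium the shares were 0.161%, 0.0998% and 0.197% in KO, against 19.0%, 20.0% and 18.9% in WT. Such a share does not depend on the scaling of a library. The KO and WT groups did not overlap under either treatment (exact two-sided permutation p = 0.1 for each, the smallest that 3 libraries against 3 can give). In WT cells the share averaged 20.1% ± 2.35 under LPS and 19.3% ± 0.597 in medium (SD, n = 3 each).

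**Figure D1:**
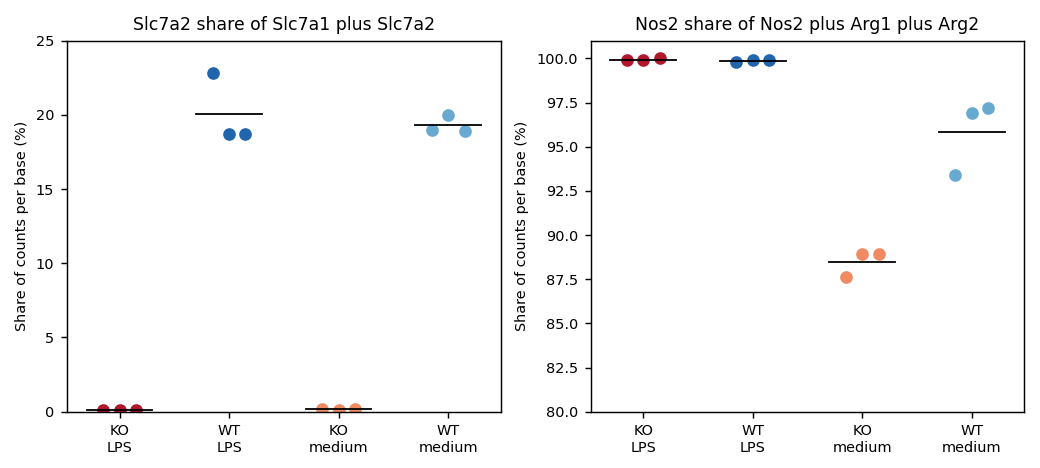
Left, the share of Slc7a2 in the counts per base of Slc7a1 plus Slc7a2, and right, the share of Nos2 in those of Nos2, Arg1 and Arg2 (percent, the right axis starting at 80), with 1 point for each library and a line at the group mean. Slc7a2 shares of the KO libraries lie under 0.2%, and those of the WT libraries between 18.7% and 22.8%.

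The LPS effect on Slc7a2 in WT cells was a rise of 1.10 ± 0.13 (log2, edgeR adjusted p = 6.07e-05). In KO cells the fitted rise was 0.72 ± 0.22 (adjusted p = 0.0356), from 58 counts in all KO LPS libraries against 36 in all KO medium libraries. That call was lost without KO LPS replicate 2 or 3 (adjusted p = 0.0863 and 0.0922), KO medium replicate 1 or 2 (0.0819 and 0.203) or WT medium replicate 1 (0.0504), with library size alone (0.178), with no filter on low counts (0.133), with only the groups compared (0.0547), with protein-coding genes only (0.101) and with a term for the processed pseudogene share (0.225). The LPS effects of the lines were not shown to differ for Slc7a2 (KO minus WT -0.39 ± 0.26, adjusted p = 0.574).

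Nos2, the inducible nitric oxide synthase gene, rose strongly with LPS in both lines. It reached 1962, 1272 and 1882 CPM in KO LPS, against 2522, 2157 and 2489 CPM in WT LPS. Unstimulated, it stood at 7.76, 6.43 and 7.44 CPM in KO medium, against 53.3, 65.1 and 63.0 CPM in WT medium. In medium the lines stood far apart, whereas under LPS the highest KO library was close to the lowest WT library. LPS raised Nos2 236-fold in KO (log2 fold change 7.88 ± 0.21, edgeR adjusted p = 1.06e-09) and 39.5-fold in WT (5.30 ± 0.19, adjusted p = 8.32e-09).

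Between the lines, Nos2 was 8.38-fold lower in KO in medium (-3.07 ± 0.17, edgeR adjusted p = 5.7e-07) and 1.40-fold lower under LPS (-0.49 ± 0.16, adjusted p = 0.0491). The difference under LPS was -0.32 (adjusted p = 0.109) without KO LPS replicate 2, the lowest of its group. It also missed the threshold without KO LPS replicate 3 (0.0614), WT LPS replicate 1, 2 or 3 (0.142, 0.055 and 0.136) or KO medium replicate 3 (0.0577), and with RLE scaling (0.0534), library size alone (0.0615), no filter (0.0862) or robust estimation off (0.0554). The LPS effect was larger in KO than in WT by 2.58 ± 0.23 on the log2 scale (adjusted p = 0.000419), and this was called in every alternative run.

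Gch1, the tetrahydrobiopterin gene, moved in steps that replicates hardly blurred. It had 40.9, 35.1 and 38.9 CPM in KO LPS, against 69.6, 68.5 and 68.2 CPM in WT LPS, and 9.45, 9.85 and 8.88 CPM in KO medium, against 14.4, 14.5 and 14.6 CPM in WT medium. None of the 4 groups overlapped. KO cells were lower by 0.85 ± 0.07 on the log2 scale under LPS (edgeR adjusted p = 8.37e-06) and by 0.63 ± 0.07 in medium (adjusted p = 0.000136). LPS raised Gch1 4.08-fold in KO (adjusted p = 9.45e-09) and 4.75-fold in WT (adjusted p = 5.97e-09), and the effects were not shown to differ (-0.22 ± 0.10, adjusted p = 0.377).

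Acod1 had the largest induction of the 10 genes in both lines. Its level was 5757, 3652 and 4598 CPM in KO LPS, against 5422, 4657 and 4962 CPM in WT LPS, and the lines overlapped. Before LPS it was 4.47, 2.21 and 4.18 CPM in KO medium, against 40.0, 45.9 and 51.4 CPM in WT medium, with no overlap. The LPS rise was 1286-fold in KO (log2 fold change 10.33 ± 0.34, edgeR adjusted p = 3.85e-09) and 110-fold in WT (6.78 ± 0.29, adjusted p = 2.79e-08). In size the KO value ranked 2 among the 26420 genes tested.

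KO cells had 12.6-fold less Acod1 than WT cells in medium (-3.66 ± 0.26, edgeR adjusted p = 2.86e-06). Under LPS the difference was -0.10 ± 0.22, with a 95% interval of -0.60 to 0.39 (adjusted p = 0.843). The interaction was 3.55 ± 0.34 (adjusted p = 0.000567), and it was called in every alternative run. Over the 12 libraries Nos2 was the gene whose log2 CPM was most like that of Acod1 among the 9755 protein-coding genes whose log2 CPM averaged 2 or more (Pearson r = 0.998), followed by Slc25a25 and Pvr (r = 0.996 each). For Nos2 the order was Acod1, Pvr and Slc25a25 (r = 0.998, 0.997 and 0.997). For Slc7a2 it was Stom, Ocrl and Csf2ra (r = 0.998, 0.996 and 0.996). The 12 points of each correlation share their libraries and fall into the same 4 groups, so these values only describe likeness.

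**Figure D2:**
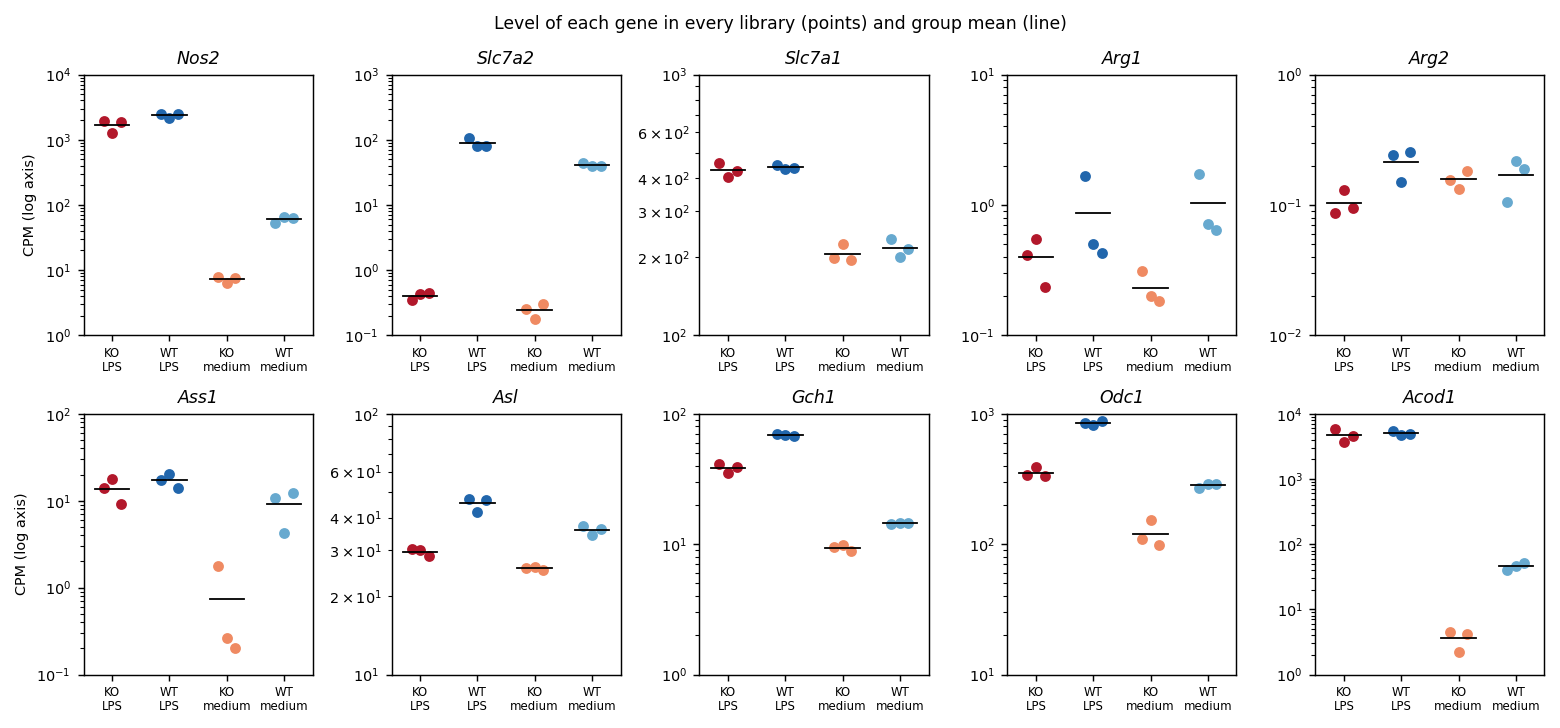
CPM (log axis) of the 10 genes in every library, with 1 point for each library, a line at the group mean, and the groups KO LPS, WT LPS, KO medium and WT medium from left to right. Nos2 and Acod1 lie apart between KO medium and WT medium and close together under LPS, while Slc7a2 is under 1 CPM in all KO libraries.

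Arginine is rebuilt from citrulline by argininosuccinate synthase and lyase. Ass1, the synthase gene, had the largest standard errors of the 9 tested genes. It had 14, 17.8 and 9.23 CPM in KO LPS, against 17.2, 20.2 and 14.2 CPM in WT LPS, and the lines overlapped. In medium it had 1.77, 0.265 and 0.203 CPM in KO (91, 12 and 10 counts), against 10.8, 4.30 and 12.4 CPM in WT, and the lines did not overlap. KO medium replicate 1 stood above the other 2 KO medium libraries, and WT medium replicate 2 below the other 2 WT medium libraries.

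Ass1 was 12.1-fold lower in KO in medium (-3.60 ± 0.72, edgeR adjusted p = 0.00577), and LPS raised it 18.1-fold in KO (4.17 ± 0.73, adjusted p = 0.00155). In WT the LPS effect was 0.91 ± 0.62 (adjusted p = 0.282), although the LPS and medium libraries did not overlap, and under LPS the lines differed by -0.33 ± 0.62 (95% interval -1.70 to 1.04, adjusted p = 0.81). The interaction missed the threshold at 3.27 ± 0.93 (adjusted p = 0.143). Without KO medium replicate 1 the values were -5.31 for KO against WT in medium, 5.82 for LPS in KO and 4.97 for the interaction (adjusted p = 0.0107), and without WT medium replicate 2 the interaction was 3.62 (adjusted p = 0.0239). With a term for the processed pseudogene share the difference in medium was -2.46 (adjusted p = 0.0813) and the LPS effect in KO 2.43 (adjusted p = 0.242), so neither was called. In KO that share separates the LPS from the medium libraries, so the term can be only partly separated from LPS there. The call in medium was also lost with only the groups compared (adjusted p = 0.0636).

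Ass1 and Odc1 are the genes of the 10 that share much sequence with others. Of the 31-base words in Ass1 transcripts 43.1% occur in other genes, and for Odc1 31.3% do, while the other 8 genes share at most 2.03%. The gene sharing the most words was the processed pseudogene Gm5424 for Ass1 and Gm7993 for Odc1. Gm5424 held 4, 6 and 6 counts in KO LPS, against 396, 241 and 350 in WT LPS, and 2, 2 and 4 in KO medium, against 80, 126 and 144 in WT medium. The sum of Ass1 and Gm5424 differed by -3.81 in medium on the log2 scale (edgeR adjusted p = 0.00187), and under LPS by -0.76 (adjusted p = 0.41), in an alternative chosen after seeing the data. How reads that map to both were counted is not given in the sources used here, so these counts are uncertain.

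**Figure D3:**
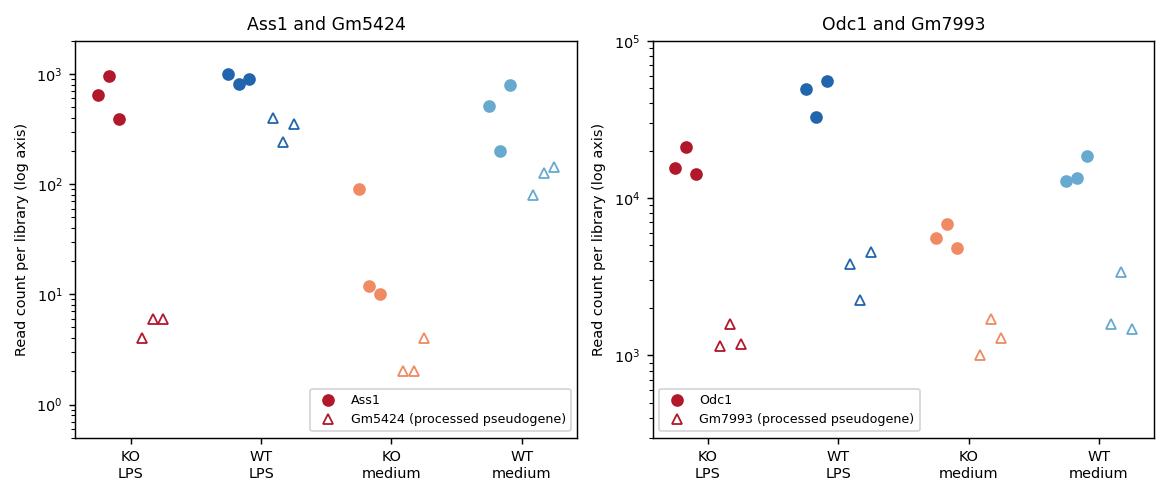
Read counts for each library (log axis) of Ass1 with the processed pseudogene Gm5424 (left) and of Odc1 with Gm7993 (right), with filled circles for the genes and open triangles for the pseudogenes. Gm5424 lies at 2 to 6 counts in KO libraries and at 80 to 396 in WT libraries.

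Asl, the lyase gene, had the smallest LPS response of the called members. It had 30.3, 30.0 and 28.6 CPM in KO LPS, against 47.2, 42.1 and 46.9 CPM in WT LPS, and 25.7, 25.9 and 25.1 CPM in KO medium, against 37.1, 34.4 and 36.1 CPM in WT medium. KO libraries lay below WT libraries under both treatments. The difference was -0.61 ± 0.07 under LPS (edgeR adjusted p = 5.95e-05) and -0.49 ± 0.07 in medium (adjusted p = 0.000456), and both were called in every alternative run. LPS effects were 0.21 ± 0.07 in KO (adjusted p = 0.0224) and 0.34 ± 0.07 in WT (adjusted p = 0.003), with an interaction of -0.13 ± 0.10 (adjusted p = 0.584).

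Those LPS calls of Asl depended on the processing. With library size alone they were -0.05 in KO and 0.00 in WT (adjusted p = 0.551 and 0.982), and with no filter 0.09 and 0.25 (adjusted p = 0.478 and 0.0574). In KO the call was also lost with only the groups compared (adjusted p = 0.0683), with protein-coding genes only (0.441), with a term for the pseudogene share (0.655) and without KO LPS replicate 1 (0.0674), KO medium replicate 1, 2 or 3 (0.0832, 0.0755 and 0.111) or WT medium replicate 1, 2 or 3 (0.0583, 0.0567 and 0.0638). The median LPS log2 fold change of all genes was -0.29 in KO and -0.40 in WT under that scaling, and -0.03 and -0.07 with TMM.

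Arginases were scarce in all groups. Arg1, the cytosolic arginase of alternatively activated macrophages, had 19, 30 and 10 counts in KO LPS, against 97, 20 and 27 in WT LPS, and 16, 9 and 9 in KO medium, against 82, 33 and 41 in WT medium. WT replicate 1 was the highest of its group under both treatments. Arg1 was lower in KO in medium (-2.13 ± 0.62, edgeR adjusted p = 0.0341), a call that was lost without KO medium replicate 1, 2 or 3 (0.0537, 0.087 and 0.102) or WT medium replicate 1 (0.119) and with a term for the pseudogene share (0.172). It was not called under LPS (-1.11 ± 0.58, 95% interval -2.39 to 0.17, adjusted p = 0.237), where the value without WT LPS replicate 1 was -0.19. LPS effects were 0.80 ± 0.65 in KO (adjusted p = 0.329) and -0.22 ± 0.54 in WT (adjusted p = 0.775, and -1.14 without WT LPS replicate 1), neither of them called, and the interaction was 1.02 ± 0.85 (adjusted p = 0.616).

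Arg2, the mitochondrial arginase, had 4, 7 and 4 counts in KO LPS, 14, 6 and 16 in WT LPS, 8, 6 and 9 in KO medium and 5, 10 and 12 in WT medium. It did not pass the filter on low counts and was not tested. Per base, Nos2 made up 99.9% ± 0.0407 of the counts of Nos2, Arg1 and Arg2 in KO LPS and 99.9% ± 0.0546 in WT LPS (SD, n = 3 each). In medium it made up 87.6%, 88.9% and 88.9% in KO, against 93.4%, 96.9% and 97.2% in WT. The groups did not overlap in medium (exact two-sided permutation p = 0.1, the smallest possible) and overlapped under LPS (p = 0.5).

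Odc1 opens polyamine synthesis. It had 337, 388 and 333 CPM in KO LPS, against 850, 816 and 880 CPM in WT LPS, and 109, 152 and 98.2 CPM in KO medium, against 270, 289 and 289 CPM in WT medium. Every KO library lay below every WT library of the same treatment, by nearly the same factor in each. The difference was -1.27 ± 0.14 under LPS (edgeR adjusted p = 5.92e-05) and -1.24 ± 0.14 in medium (adjusted p = 0.000102). LPS raised Odc1 2.94-fold in KO (adjusted p = 9.16e-06) and 3.00-fold in WT (adjusted p = 7.52e-06), and the interaction was -0.03 ± 0.20 (adjusted p = 0.962). Gm7993 held 6.89% to 8.34% of the count of Odc1 in the LPS libraries of both lines, 18.0% to 26.6% in KO medium and 7.92% to 25.2% in WT medium, and with both summed the difference was -1.27 under LPS and -1.14 in medium.

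**Figure D4:**
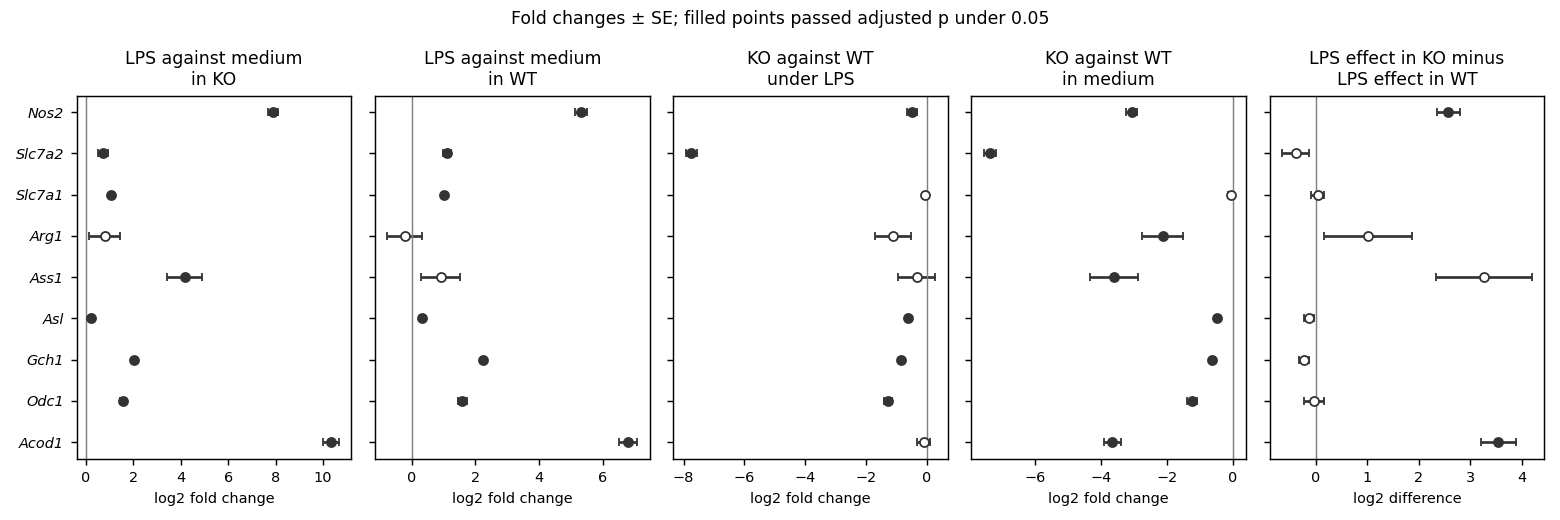
Log2 fold changes (points) with their standard errors (bars) of the 9 genes that passed the filter, from left to right for LPS against medium in KO and in WT, KO against WT under LPS and in medium, and the LPS effect in KO minus that in WT, with filled points where the edgeR adjusted p was under 0.05. Nos2 and Acod1 alone are filled in the last panel, and all filled points between the lines are at negative values.

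Counted over the genes, LPS raised 8 of the 10 in KO and 7 in WT, and none fell. The other genes were Arg1 and Arg2 in KO, and Arg1, Arg2 and Ass1 in WT. Of all 26420 genes tested, 25.3% rose in KO and 16.3% in WT. Against WT, KO cells had 5 of the 10 lower under LPS (Nos2, Slc7a2, Asl, Gch1 and Odc1) and 8 lower in medium (these and Arg1, Ass1 and Acod1), with none higher. Of all genes 12.7% were lower and 7.87% higher in KO under LPS (20.6% in either direction), and 12.3% were lower and 6.88% higher in medium. The split in medium was 3256 lower and 1818 higher genes, and without WT medium replicate 2 it was 5155 lower and 6110 higher. For the interaction 2 of the 10 were called, both with a larger effect in KO, against 0.693% of all genes in that direction and 1.60% in either.

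The order of levels per length (CPM for each kb of exon) also differed between the groups. It rests on the union of exons, which is longer than the longest transcript for Slc7a1 (11530 against 7179 bases), Gch1 (6251 against 3508) and Asl (4831 against 2413). For Acod1 both are 2623 bases. The order of genes at close levels can therefore change with the length used, and it was not tested with the longest transcript. Under LPS Acod1 led with 1780 ± 402 in KO and 1911 ± 147 in WT, followed by Nos2 with 386 ± 85.6 and 542 ± 45.7, Odc1 with 103 ± 9 and 249 ± 9.42, and Slc7a1 with 37.2 ± 2.21 and 38.2 ± 0.584 (SD, n = 3 each). Asl, Gch1 and Ass1 came next in KO LPS at 6.14, 6.13 and 5.66, which did not differ beyond their spread. In WT LPS the next were Gch1, Slc7a2, Asl and Ass1 at 11 ± 0.12, 9.62 ± 1.58, 9.40 ± 0.588 and 7.13 ± 1.26, where Slc7a2 lay within its SD of Gch1 and of Asl, and Asl lay above Ass1 by more than either SD. In medium Odc1 led in both lines, at 35.2 ± 8.33 in KO and 83.0 ± 3.30 in WT, and Slc7a1 was next at 17.8 and 18.7. In WT medium Acod1 at 17.4 ± 2.16 lay within its spread of Slc7a1 (18.7 ± 1.47) and above it in replicates 2 and 3, and Nos2 was at 13.7 ± 1.44, whereas in KO medium they stood at 1.38 ± 0.469 and 1.63 ± 0.157, within their spread of Gch1 at 1.5 ± 0.0781 and below Asl at 5.30. Group means under 1 were those of Arg1 and Arg2 in all groups, of Slc7a2 in both KO groups and of Ass1 in KO medium (0.309).

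Other genes of these pathways are described by counts. Of all genes tested, 26.8% fell with LPS in KO and 16.3% in WT, and the counts below are to be read against these shares and those given above. Of 6 tested tetrahydrobiopterin genes beyond Gch1, none rose with LPS and 2 fell in KO and 1 in WT, near the shares of all genes. Against WT, 1 of the 6 was lower in KO under LPS and 1 in medium, namely Qdpr, which regenerates the cofactor, at -0.38 and -0.28. The median log2 fold change of these 6 was between -0.17 and -0.04 in the 4 comparisons, against -0.07 to 0.07 for all genes.

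Of 8 further transporter genes 1 rose and 1 fell with LPS in KO, and 2 rose and 1 fell in WT. In KO against WT 3 were lower under LPS and 2 in medium. Slc3a2, the heavy chain that pairs with several amino acid transporters, was at 177 ± 14.4 CPM in KO LPS, 366 ± 6.43 CPM in WT LPS, 99.1 ± 6.96 CPM in KO medium and 150 ± 7.13 CPM in WT medium (SD, n = 3 each). It was lower in KO by 1.04 ± 0.08 on the log2 scale under LPS (edgeR adjusted p = 4.09e-06) and by 0.59 ± 0.08 in medium (adjusted p = 0.00036).

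The polyamine list of 15 genes had 7 higher and 2 lower with LPS in KO, and 5 higher and 1 lower in WT. Between the lines it had 3 higher and 3 lower in KO under LPS, and 1 higher and 3 lower in medium. Smox, the spermine oxidase, was at 47.0 ± 9.32 CPM in KO LPS and 132 ± 16.6 CPM in WT LPS (-1.49 ± 0.14, edgeR adjusted p = 1.55e-05). Azin1, an antizyme inhibitor that protects ornithine decarboxylase from degradation, went the other way at 316 ± 52.0 CPM in KO LPS and 202 ± 10.6 CPM in WT LPS (0.64 ± 0.11, adjusted p = 0.00162), with an interaction of 0.88 ± 0.16 (adjusted p = 0.0196).

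Among 18 tested genes of citrate, aconitate and itaconate handling, none rose and 1 fell with LPS in each line, namely Idh1, the cytosolic isocitrate dehydrogenase. In KO against WT 2 were higher and 5 lower under LPS, and 4 were higher and 4 lower in medium. Abcg2, a membrane exporter, was at 21.0 ± 3.26 CPM in KO LPS, 6.59 ± 0.382 CPM in WT LPS, 27.3 ± 5.64 CPM in KO medium and 8.21 ± 1.75 CPM in WT medium (1.67 ± 0.19 under LPS and 1.73 ± 0.19 in medium, edgeR adjusted p = 6.77e-05 and 7.42e-05). Of the 9 tested genes of nitric oxide handling 2 rose and 1 fell with LPS in KO and 1 rose in WT. Against WT none of them was called under LPS, and 1 was higher in medium. Of 11 tested genes of the urea cycle, creatine, proline and ornithine, 1 rose and 2 fell with LPS in KO and 1 fell in WT, and between the lines 1 was higher and 1 lower in KO under each treatment.

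Transcription factors known to act on Nos2, Arg1 or Acod1 rose with LPS in 12 of 13 cases in KO (median log2 fold change 1.56, against -0.03 for all genes) and in 13 of 13 in WT (1.51, against -0.07). Against WT, 2 were higher and 4 lower in KO under LPS, and 3 were lower in medium. Cebpb, among the lower ones, was at 39.0 ± 0.961 CPM in KO LPS and 66.3 ± 8.58 CPM in WT LPS (-0.77 ± 0.12, edgeR adjusted p = 0.000602). In medium it was at 13.2 ± 0.652 CPM in KO and 23.4 ± 3.49 CPM in WT (-0.82 ± 0.12, adjusted p = 0.000521). Cebpd, among the higher ones under LPS, was at 38.6 ± 8.17 CPM in KO LPS and 24.1 ± 1.71 CPM in WT LPS (0.68 ± 0.16, edgeR adjusted p = 0.0102). Irf1, at 114 and 146 CPM in KO LPS and WT LPS, was not shown to differ between the lines (-0.36, adjusted p = 0.536).

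**Figure D5:**
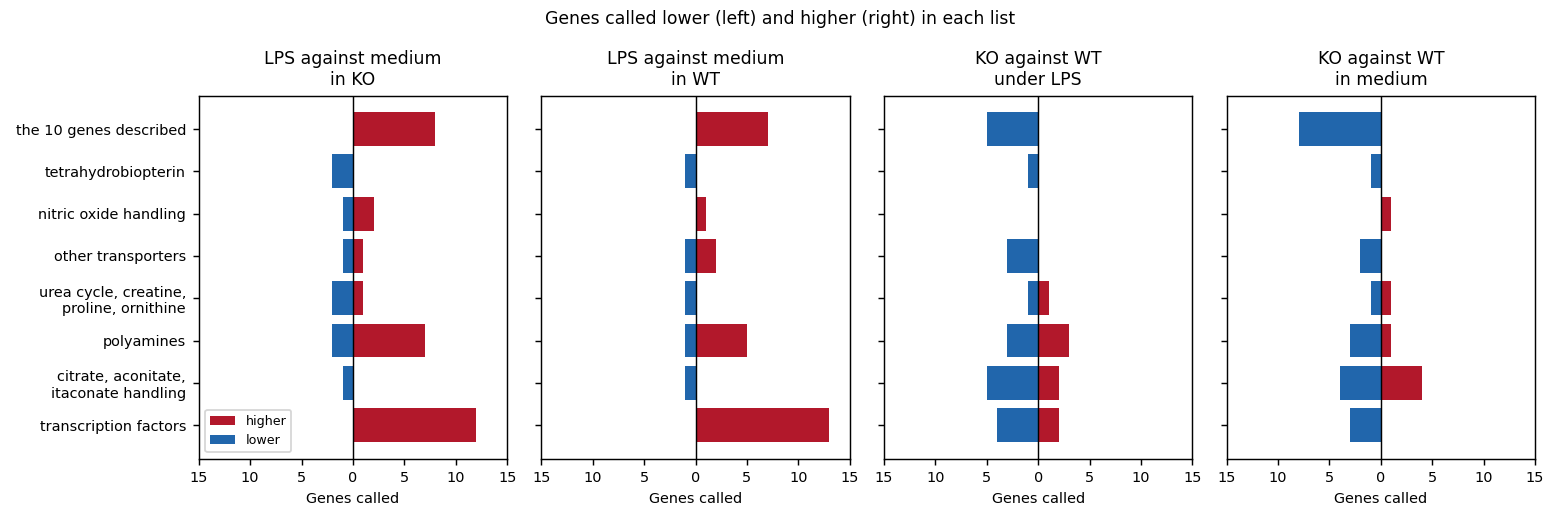
Numbers of genes called higher (right of 0, red) and lower (left of 0, blue) at an edgeR adjusted p under 0.05 in the 10 genes described and in 7 further lists, for LPS against medium in KO and in WT and for KO against WT under LPS and in medium. The list of transcription factors has 12 and 13 genes higher with LPS in KO and WT, and the 10 genes described have 5 and 8 lower in KO under LPS and in medium.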

How the data were processed

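RNA was sequenced from 12 libraries (stranded total RNA libraries with ribosomal RNA removed, as the labels' protocols state), 3 in each of 4 groups. The authors deposited a single table of unnormalized counts for Ensembl gene identifiers. FastQC 0.11.9, Trimmomatic 0.39, STAR 2.7.9a, featureCounts, DESeq2 1.32.0 and build GRCm39 are named in the submitters' processing notes. Which annotation release and strand option were used, and how multiply mapped reads were treated, is not given in the sources used here. Of the identifiers, 52083 matched a symbol of GENCODE M21 (GRCm38), which also gave gene classes, exon lengths and transcript sequences. Because the builds differ, no gene coordinates are given, and promoter positions are those of the RefSeq table.

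The edgeR 4.0.16 package (R 4.3.3) was run on the counts of all genes that passed filterByExpr by group (count minimum 10), 26420 in number, with TMM scaling and a robust quasi-likelihood fit of 4 group means to all 12 libraries. A gene was called where its p, adjusted by Benjamini-Hochberg over all tested genes, was under 0.05. Log2 fold changes come with the standard error (SE) of the fit and, where given, its 95% interval. CPM are per M counts of the scaled library, except for the cell type markers, where the library was not scaled. Levels per length divide the scaled CPM by the union of annotated exons. Log2 CPM in correlations used a prior count of 2. Shares within a library were compared by exact two-sided permutation. Before use, the procedure was checked on simulated counts.

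The 9 tested genes were named in every comparison and Arg2 by its counts, and from each further list the called gene with the largest change at a mean log2 CPM of at least 2 in a comparison where it helped the account. The 10 genes and the lists were chosen with earlier results of these data known. Of 139 list entries, 1 matched no symbol. Alternatives were a count minimum of 50 or no filter, scaling by RLE or by library size alone, DESeq2 1.42.0, a block for the replicate number, fits of the compared groups or of protein-coding genes alone, no robust estimation, a covariate term for the log2 processed pseudogene share, and each library left out. Summing Ass1 and Odc1 with the gene that shares most of their sequence was added after seeing the data. No libraries of a group agreed within sampling noise (chi-square per degree of freedom 19.1 to 155). Some genes of the lists enter the counts but are not reported here by name.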

Additional observations from a re-analysis of the deposited data

Results flagged for a closer look

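The LPS effect differed between the lines for 2 of the 10 genes, by the interaction test of the edgeR fit. Nos2 had a larger LPS effect in KO than in WT by 2.58 on the log2 scale (7.88 in KO and 5.30 in WT), with a range of 2.47 to 2.75 over the alternatives run. Acod1 had a larger LPS effect in KO than in WT by 3.55 (10.33 in KO and 6.78 in WT), with a range of 3.31 to 3.75. In every library of both lines the LPS value was above every medium value of that line. The LPS effect and the level in medium share the medium libraries, so a lower start in KO medium enters both.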

How the results depend on the processing

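Of the calls and directions of single genes over the alternatives, 963 stayed as they were, 41 lost a call, 3 gained one and 14 changed direction. With the pseudogene share as a covariate, LPS in KO raised 5 of the 10 genes in place of 8. That share was 6.64% to 7.35% in KO LPS and 12.8% to 14.3% in KO medium. The covariate was a single slope over all libraries beside the group means, so it rests on differences within groups. In KO it can be only partly separated from LPS. Whether the calls lost with it there depend on the share or on LPS cannot be decided from this fit. Over all alternatives the called genes numbered 6 to 8 for KO against WT in medium, 4 to 5 under LPS, 6 to 7 for LPS in WT and 2 to 3 for the interaction, which gained Ass1 with DESeq2 (3.31, adjusted p = 0.046). All changes of direction concerned values not called, apart from Asl with LPS in KO (-0.05 with library size alone). With library size alone Slc7a1 under LPS was 0.04 and the Odc1 interaction 0.05, and with protein-coding genes only the Slc7a1 interaction was -0.02. With single libraries left out, Arg1 with LPS in WT ranged from -1.14 to 0.29, Slc7a1 under LPS from -0.08 to 0.00, Acod1 under LPS from -0.28 to 0.04, and the interactions of Slc7a1 from -0.01 to 0.11 and of Odc1 from -0.13 to 0.19. The cause was not tested.

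The KO minus WT difference in the Slc7a2 share was -19.9 points under LPS and -19.2 in medium. With the longest transcript as length it was -15.2 and -14.6, and as a share of counts -16.5 and -15.8. The Nos2 share in medium differed by -7.35 points, and by -3.07 as a share of counts. These changes follow from the lengths used.

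Counts over all genes moved more. For LPS in WT 8600 genes were called, 5574 with the pseudogene covariate and 5322 and 5695 without WT LPS replicates 1 and 3. For LPS in KO 13749 were called, 2001 with that covariate, which in KO can be only partly separated from LPS, and 8285 among protein-coding genes. For KO against WT in medium 5074 were called, 2342 with the covariate, 3354 with only the groups compared and 11265 without WT medium replicate 2. For the interaction 423 were called, 857 with DESeq2, 661 with the replicate block, 670 among protein-coding genes, 199 with the covariate and 186 to 3997 with single libraries left out. Library size alone changed the split into higher and lower genes to 4182 and 10422 for LPS in KO (6679 and 7070 with TMM), 2104 and 9985 in WT (4303 and 4297), 2922 and 2936 for KO against WT under LPS (2080 and 3351) and 360 and 236 for the interaction (183 and 240).

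Correlations of the deviations of same-numbered libraries ran from -0.37 to 0.39, so the numbers were not taken to pair the libraries. With the replicate block 8 and 7 of the 10 genes rose with LPS in KO and WT, 5 and 8 were lower in KO under LPS and in medium, and 2 interactions were called, as without it. Depth limits Arg1, Arg2, Slc7a2 in KO and Ass1 in KO medium (91, 12 and 10 counts), with at most 97 counts in any such library.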

Other observations

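Gatm, whose enzyme spends arginine on the first step of creatine synthesis, was at 0.126 ± 0.0165 CPM in KO LPS, 2.14 ± 1.16 CPM in WT LPS, 0.117 ± 0.0308 CPM in KO medium and 2.02 ± 1.5 CPM in WT medium (SD, n = 3 each). It was lower in KO under LPS (log2 fold change -4.06 ± 0.60, edgeR adjusted p = 0.000515) and in medium (-4.09 ± 0.61, adjusted p = 0.000688), with LPS effects near 0 in both lines (0.11 in KO and 0.09 in WT, adjusted p = 0.912 and 0.898). Its level lay under the minimum for named genes, and it was chosen after its values were seen.

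Nos1, the synthase gene best known from neurons, averaged 27.5 ± 15.8 CPM in KO LPS, 18.0 ± 2.96 CPM in WT LPS, 40.8 ± 20.9 CPM in KO medium and 23.1 ± 4.87 CPM in WT medium (SD, n = 3 each), and was called in none of the comparisons. In medium the other synthase gene Nos2 was at 7.21 ± 0.694 CPM in KO and 60.5 ± 6.33 CPM in WT. Levels of these genes are not compared with each other here, because the values are not per length. Nos1 was also chosen after its values were seen.

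Among the transcription factors, Batf was at 3.21 ± 0.371 CPM in KO LPS, 1.16 ± 0.204 CPM in WT LPS, 0.0833 ± 0.0261 CPM in KO medium and 0.0564 ± 0.0125 CPM in WT medium, and was higher in KO under LPS by 1.47 ± 0.22 on the log2 scale (edgeR adjusted p = 0.000458). It too was chosen after its values were seen.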
